A study of Mus musculus with 46 samples.

Results

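B16F10 tumors in which the tumor cells carried a guide RNA against Arid1a were compared, gene by gene, with B16F10 tumors whose cells carried a scrambled guide, both taken on day 15. B16F10 is a pigmented melanoma line of the mouse. The comparison holds 4 of the 46 libraries of the series, all polyA RNA of tumors grown from cells injected under the skin: 2 with the genotype sgArid1a and 2 with the genotype sgScramble. Guides act only in the injected cells, so host cells in the tumors of both groups keep Arid1a. The strain, age and sex of the host mice, the number of clones or guides per group, and whether the 2 libraries of a group came from separate animals are not given in the sources used here, so p-values measure only the spread between these libraries.

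Arid1a is a DNA-binding subunit of the BAF form of SWI/SNF, a complex that uses ATP to slide and evict nucleosomes and so opens enhancers and promoters. It is lost or mutated in many human cancers. Interferons are secreted proteins that bind receptors on the cell surface and, through JAK kinases and STAT and IRF factors, switch on genes that block viruses and display peptides on MHC molecules to T cells. In tumors, such genes can be read by the cancer cells, by macrophages and by other host cells alike.

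The authors' tumor table lists 24537 genes with normalized log2 values, in which low values are drawn together. Of these, 5433 were at 0 in all 4 libraries, 5209 had a mean log2 value under 4, and 13895 were tested with limma. A gene was called at a Benjamini-Hochberg adjusted p under 0.05, and a stricter rule also asked for a log2 fold change of at least 1 in size. Fold changes are sgArid1a minus sgScramble throughout, and errors after ± are standard errors. The libraries held 31.6 to 38.8 M reads, per the file headers. The median difference between the 2 libraries of a group was 0.0685 in sgArid1a and 0.0755 in sgScramble tumors, and 0 genes differed by 1 or more within either group.

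The targeted gene was read first. Arid1a had log2 values of 11.24 and 11.41 in sgArid1a tumors, against 11.71 and 11.57 in sgScramble tumors. Both sgArid1a libraries were below both sgScramble libraries, and the fold change was -0.32 ± 0.07 (adjusted p = 0.0031). Small insertions or deletions at a cut site need not lower the mRNA, and host cells add their own, so the value checks the labels only in part. The tumors held RNA of pigment cells: Tyrp1, Dct and Pmel, which make or hold melanin, had log2 values of 16.48 to 18.19, and the melanocyte factors Mitf and Sox10 had 14.08 to 14.77.

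The 2 kinds of tumor differed at a large share of all genes. Of the 13895 tested genes, 3611 (26.0%) were called higher and 3898 (28.1%) lower in sgArid1a tumors, so that 54.0% were called in one direction or the other. Most of these changes were small. With a log2 fold change of at least 1, 295 genes (2.12%) were higher and 88 (0.633%) lower, and the median of all tested genes was -0.0191. In the authors' deposited table, 3115 genes were higher and 3284 lower at an adjusted p under 0.05. Of these, 1186 were higher and 311 lower by at least 1 in the authors' own fold changes, which were not those used here. Of the genes called by limma, 2930 were also higher and 3252 also lower in the authors' deposited table, and 0 had the opposite direction there. A share of a gene list near 26.0% higher or 28.1% lower is the background, and the lists below are read against it.

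Of 27 tested SWI/SNF subunits 4 rose and 12 fell, with a median of -0.11, and 2 rose when either sgArid1a library was left out. Arid1b, the paralog that can take the place of Arid1a in the complex, was at 10.68 and 10.73 in sgArid1a tumors and at 10.95 or more in both sgScramble tumors, a fall of 0.27 on the log2 scale. The ATPase Smarca4 fell by 0.29 and the actin-related subunit Actl6a fell by 0.50, while Smarcd3, the core subunit of heart and muscle complexes, rose by 0.70 ± 0.09.

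The largest rises by the rule used for naming genes (called, a mean log2 value of at least 7, no overlap between groups) were of muscle and cartilage genes and of a stress hormone. Igfn1, a protein of the muscle Z-disc, had log2 values of 10.81 and 10.95 in sgArid1a tumors, against 5.96 and 6.10 in sgScramble tumors. Col2a1, the main collagen of cartilage, had 11.20 and 11.31 in sgArid1a tumors, against 6.89 and 7.06 in sgScramble tumors. Fgf21, a hormone released by stressed liver and muscle, had 10.69 and 10.77 in sgArid1a tumors, against 6.63 and 6.59 in sgScramble tumors. In each of these the 2 groups stood several log2 units apart and the libraries of a group lay close together. The fold changes were 4.85 ± 0.08 for Igfn1, 4.28 ± 0.08 for Col2a1 and 4.12 ± 0.07 for Fgf21 (adjusted p of 3.8e-12, 4.6e-12 and 3.8e-12). The others among the 12 largest rises were Col11a2 (3.74), the skin adhesion protein Cdsn (3.45), skeletal muscle actin Acta1 (3.16), the muscle hormone Ostn (3.08), Tnfrsf11b, the decoy receptor that restrains bone resorption (3.01), the fast troponin Tnnt3 (between 2.98 and 3.01), the carbonic anhydrase Car3 (2.98), Xirp2 (2.96) and titin, Ttn (2.95).

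**Figure D1:**
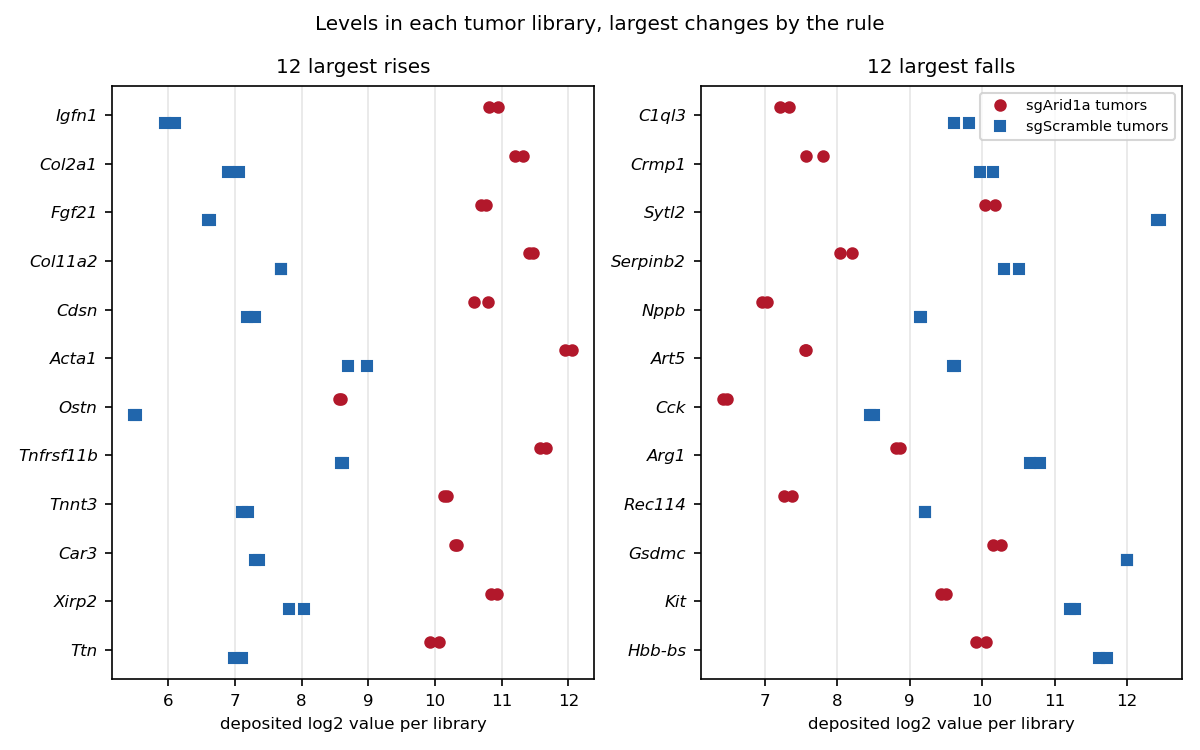
Deposited log2 value in each tumor library (points, 2 per group) of the 12 genes with the largest rise and the 12 with the largest fall. In each of the 24 genes both sgArid1a libraries lie on the same side of both sgScramble libraries, which the rule for naming these genes required.

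The largest falls included nerve, hormone and pigment cell genes. C1ql3, a secreted synapse protein, had log2 values of 7.34 and 7.22 in sgArid1a tumors, against 9.62 and 9.82 in sgScramble tumors. Crmp1, a protein of growing axons, had 7.57 and 7.80 in sgArid1a tumors, against 10.15 and 9.97 in sgScramble tumors. Sytl2, which links melanosomes and other granules to the membrane, had 10.18 and 10.05 in sgArid1a tumors, against 12.41 and 12.46 in sgScramble tumors. The lack of overlap between groups followed from the rule, and the fold changes were -2.44 ± 0.09, -2.37 ± 0.09 and -2.32 ± 0.06. The others were the protease inhibitor Serpinb2 (-2.28), the peptide hormones Nppb (-2.15) and Cck (-2.03), Art5 (-2.05), the arginine-degrading enzyme Arg1 (-1.89), the meiotic gene Rec114 (-1.89), Gsdmc (-1.80), the growth factor receptor Kit (-1.78) and the hemoglobin chain Hbb-bs (-1.68).

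Interferon-stimulated genes rose almost throughout. Of 68 tested antiviral genes of the type I interferon response, 62 rose and 1 fell, with a median of 0.75, and 19 rose by 1 or more. Of 20 tested interferon-inducible GTPases, which attack the vacuoles of intracellular microbes, 20 rose, 15 of them by 1 or more, with a median of 1.47. The promoters of the genes below are shown because they carry the binding motifs of the factors that interferon activates. They come from RefSeq (GRCm38.p6), are given 5′ to 3′ on the strand of the gene, and capitals mark the motif. The motif of the first 5 is GAAA, any 2 bases and GAAA again, on either strand, the core of the interferon-stimulated response element read by factors that interferon activates, and is called the ISRE-type motif here. The capitals of Irf1 mark TTCNNNGAA, the gamma-activated sequence of interferon-gamma responses. The windows are chr11:58199477-58199576 (plus strand, Igtp), chr11:48871390-48871489 (minus strand, Irgm1), chr12:26456518-26456617 (minus strand, Rsad2), chr19:34583362-34583461 (plus strand, Ifit3), chr4:156200830-156200929 (minus strand, Isg15) and chr11:53769879-53769977 (plus strand, Irf1).
Igtp: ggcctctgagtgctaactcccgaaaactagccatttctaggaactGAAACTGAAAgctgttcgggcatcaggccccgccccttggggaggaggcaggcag
Irgm1: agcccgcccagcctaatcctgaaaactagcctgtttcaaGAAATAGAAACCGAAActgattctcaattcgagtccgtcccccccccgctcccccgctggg
Rsad2: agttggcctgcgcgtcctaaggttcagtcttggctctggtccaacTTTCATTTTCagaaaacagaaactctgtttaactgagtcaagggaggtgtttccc
Ifit3: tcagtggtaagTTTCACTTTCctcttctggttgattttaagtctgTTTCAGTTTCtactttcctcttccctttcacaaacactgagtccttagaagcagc
Isg15: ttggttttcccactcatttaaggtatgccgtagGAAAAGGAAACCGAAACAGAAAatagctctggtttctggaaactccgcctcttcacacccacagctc
Irf1: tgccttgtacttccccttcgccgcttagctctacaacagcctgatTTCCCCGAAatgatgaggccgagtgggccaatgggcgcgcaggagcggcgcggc

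In Irgm1 and Isg15 the matches to the ISRE-type motif overlap one another, and Ifit3 holds a pair of separate ones. No capitals shown overlap a match to another motif searched here. The windows searched run from 250 bases before to 50 bases after a gene's start. Of the 53 antiviral genes with a window, 29 (54.7%) held the ISRE-type motif, as did 11 of 13 GTPase genes (84.6%), against 1079 of all 27025 genes with a window (3.99%). TTCNNNGAA was in 7 of the 13 GTPase genes (53.8%), against 9.55% of all genes. Of the genes that rose by 1 or more, 35 of 218 with a window held the ISRE-type motif (16.1%), and of all tested genes 3.83% did. A match describes these letters only.

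The GTPases were the interferon genes with the highest median. Igtp, an immunity-related GTPase, had log2 values of 11.22 and 11.10 in sgArid1a tumors, against 8.71 and 8.84 in sgScramble tumors. Gbp2, a guanylate-binding protein, had 10.64 and 10.63 in sgArid1a tumors, against 8.79 and 8.75 in sgScramble tumors. Both sgArid1a libraries exceeded both sgScramble libraries, by 2.38 ± 0.07 for Igtp and 1.87 ± 0.07 for Gbp2 (adjusted p of 2.3e-10 and 6.6e-10). Iigp1, which coats parasite vacuoles, rose by 2.17, Tgtp2 by 1.97, Ifi47 by 1.89, Irgm2 by 1.76 and Irgm1 by 1.70. Tgtp1 and Tgtp2 are near-identical copies, as are several Gbp and Slfn genes, and reads could have been divided between them. The 8 tested genes of the Irg cluster on chr11:48865249-58222783 (mm10) all rose, with a median of 1.73, and so did the 4 tested Gbp genes on chr3:142496934-142638008 and the 4 on chr5:105014153-105293699.

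Among the antiviral effectors, Ifit3, which binds foreign RNA with its partner Ifit1, had log2 values of 9.88 and 9.78 in sgArid1a tumors, against 8.35 and 8.48 in sgScramble tumors. Rsad2 (viperin), which makes a chain terminator of viral RNA synthesis, had 11.57 and 11.51 in sgArid1a tumors, against 9.99 and 10.12 in sgScramble tumors. Isg15, the ubiquitin-like modifier, had 10.08 and 10.14 in sgArid1a tumors, against 8.88 and 8.89 in sgScramble tumors. No library of one group reached the range of the other, and the rises were 1.42 ± 0.08, 1.48 ± 0.07 and 1.22 ± 0.07. The nuclease Isg20 rose by 1.93, Trim30a by 1.68, the DNA-binding Ifi203 by 1.55, Oas2, an enzyme that makes the activator of RNase L, by 1.52, and Usp18, which removes Isg15 and restrains the receptor, by 1.41. All 9 tested genes of oligoadenylate synthetases and RNase L rose, as did 5 of 5 of Isg15 and its enzymes. The RNA sensors Ddx58 (RIG-I), Ifih1 (MDA5) and Zbp1 rose by 1.02, 0.77 and 1.03. The family was not uniform: Slfn3 fell by 0.29, and Ifit2 was at 10.67 and 10.54 in sgArid1a tumors, against 10.50 and 10.71 in sgScramble tumors, with a fold change of 0.00 ± 0.08 that did not pass the test. Of the 68 genes, 45 reached the level of the test in untreated B16F10 cultures, which hold no host cells, and 40 of these rose and 1 fell in the tumors; of the 23 below that level in culture, 22 rose.

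The genes of interferon itself were below the level of the test, and its receptors moved little. Of 16 interferon ligand genes 0 had a mean log2 value of 4 or more. Of 6 receptor subunits, Ifngr1 rose by 0.38 ± 0.06 and Il10rb fell by 0.32 ± 0.06, while Ifnar1 (-0.03), Ifnar2 (-0.06) and Ifngr2 (-0.09) did not pass the test. The kinase Jak2 rose by 0.32 and Jak3, the kinase of lymphocyte cytokine receptors, by 0.64, and Jak1 (0.05) and Tyk2 (0.03) did not pass. Further down, Irf1, a factor whose promoter is shown above, had log2 values of 11.09 and 11.11 in sgArid1a tumors, against 10.17 and 10.03 in sgScramble tumors. The groups did not overlap, and Irf1 rose by 1.0 ± 0.07. Irf8, a factor of myeloid cells and of interferon-gamma responses, rose by 1.19, Irf7 by 0.94, Stat2 by 0.65, Irf9 by 0.51 and Stat3 by 0.34, while Stat5b fell by 0.27 and Stat5a by 0.18. Of 7 inhibitors 1 rose, Socs1 by 0.17. In DNA sensing, Mb21d1 (cGAS) had 7.93 and 7.94 in sgArid1a tumors, against 8.56 and 8.61 in sgScramble tumors, a fall of 0.65 ± 0.07, and Tmem173 (STING) rose by 0.19 ± 0.07 (adjusted p = 0.041).

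**Figure D2:**
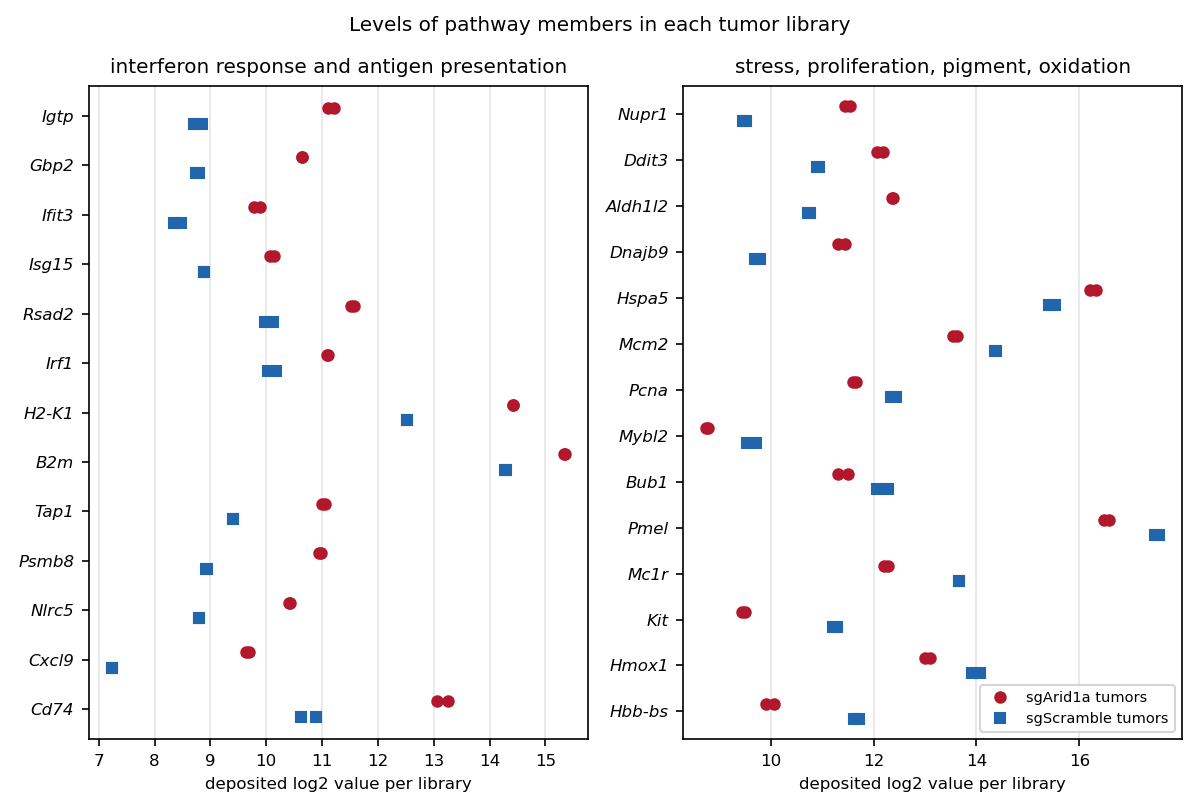
Deposited log2 value of 27 pathway genes in each tumor library (points, 2 per group). The 13 interferon and antigen presentation genes on the left are higher in sgArid1a tumors, and on the right the stress genes Nupr1 to Hspa5 are higher and the genes Mcm2 to Hbb-bs lower in sgArid1a tumors.

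Genes that cut, carry and display peptides on MHC class I rose together. Of 34 tested members 31 rose and 0 fell, 14 of them by 1 or more, with a median of 0.72. H2-K1, a class I heavy chain, had log2 values of 14.43 and 14.43 in sgArid1a tumors, against 12.52 and 12.52 in sgScramble tumors. B2m, the light chain shared by all class I molecules, had 15.34 and 15.35 in sgArid1a tumors, against 14.29 and 14.27 in sgScramble tumors. Psmb8, a catalytic subunit of the immunoproteasome that trims peptides for display, had 10.95 and 10.99 in sgArid1a tumors, against 8.92 and 8.94 in sgScramble tumors. The libraries of a group were within 0.1 of each other and the groups lay 1 to 2 log2 units apart, with rises of 1.91 ± 0.06 for H2-K1, 1.06 ± 0.06 for B2m and 2.04 ± 0.07 for Psmb8. Psmb9 rose by 1.65, the peptide pump subunits Tap1 by 1.62 and Tap2 by 1.56, the loading factors Tapbpl by 1.51 and Tapbp by 1.28, H2-D1 by 1.45, and Nlrc5, the transactivator of class I genes, by 1.62 ± 0.07. Values of H2-K1, H2-D1 and the H2-Q and H2-T genes are uncertain where near-identical copies share reads. The MHC region, chr17:33919478-37274485, held 31 tested H2, Tap1, Tap2, Tapbp, Psmb8 and Psmb9 genes, of which 29 rose, with a median of 1.21. The ISRE-type motif was in 5 of 23 class I members with a window (21.7%), and the windows of H2-K1, Tap1, Psmb8, Psmb9 and Nlrc5 held none.

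The constitutive proteasome moved the other way. Of 33 tested subunits 0 rose and 25 fell, with a median of -0.24. The catalytic subunits Psmb7, Psmb5 and Psmb6, which the immunoproteasome subunits replace, fell by 0.56, 0.26 and 0.18. The cap subunit Psmd8 had log2 values of 13.23 and 13.25 in sgArid1a tumors, against 14.00 and 13.97 in sgScramble tumors, and fell by 0.74 ± 0.06.

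MHC class II genes, which B cells, dendritic cells and activated macrophages use to display peptides to helper T cells, rose in 9 of 10 tested members, 7 of them by 1 or more, with a median of 1.42. The invariant chain Cd74 had log2 values of 13.06 and 13.26 in sgArid1a tumors, against 10.90 and 10.63 in sgScramble tumors. The groups lay more than 2 log2 units apart, and Cd74 rose by 2.40 ± 0.09 (adjusted p = 9.3e-10). H2-DMb1, which loads peptides, rose by 2.03, the chains H2-Aa by 1.86, H2-Eb1 by 1.69 and H2-Ab1 by 1.51, and the transactivator Ciita by 0.95. Complement genes rose in 19 of 25 tested members and fell in 1.

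Markers of macrophages rose with these lists. Of 36 tested macrophage markers 31 rose and 1 fell, with a median of 0.84. The colony-stimulating factor receptor Csf1r had log2 values of 10.67 and 10.71 in sgArid1a tumors, against 9.57 and 9.36 in sgScramble tumors, and C1qa, a complement subunit made by tissue macrophages, had 12.18 and 12.22 in sgArid1a tumors, against 10.98 and 10.89 in sgScramble tumors. Both were higher in both sgArid1a libraries, by 1.23 ± 0.08 and 1.27 ± 0.06, and Adgre1 (F4/80) rose by 1.12. Summed over the list on the linear scale, macrophage markers reached 54348 and 54612 in sgArid1a tumors, against 29646 and 29393 in sgScramble tumors. In bulk RNA, a change in the number of cells of a type and a change in RNA per cell cannot be told apart. The part of macrophages in the rises of interferon, MHC and complement genes was not tested. Not all macrophage genes moved: Itgam had a fold change of 0.09 ± 0.07 and did not pass.

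Lymphocyte transcripts were near the lower limit of the test. Of 20 T cell markers 10 were tested and 6 rose, with a median of 0.22. Cd4 had log2 values of 5.71 and 5.69 in sgArid1a tumors, against 4.98 and 5.01 in sgScramble tumors, and rose by 0.70 ± 0.06. Cd8a had 4.46 and 4.49 in sgArid1a tumors, against 4.07 and 4.12 in sgScramble tumors, and rose by 0.38 ± 0.05. Cd3e, a defining subunit of the T cell receptor complex, was under the level of the test, as were the natural killer receptor Ncr1 and the B cell marker Ms4a1. Of 7 tested cytotoxic and natural killer cell markers 6 rose. Summed levels were 2580 and 2505 in sgArid1a tumors and 2465 and 2316 in sgScramble tumors for T cell markers, and 263 and 264 in sgArid1a tumors and 216 and 224 in sgScramble tumors for cytotoxic and natural killer markers. The T cell sum includes 3 tested members that also reached the level of the test in untreated cultures, which hold no host cells. In the tumors 1 of these 3 rose and 0 fell, with a median of -0.02. Of 16 dendritic cell markers 13 rose, among them Itgax by 0.66 and Flt3 by 0.46, and Fscn1, which melanoma cells express as well, fell by 0.80. Their summed level, most of it Fscn1, was 6195 and 6454 in sgArid1a tumors, against 8260 and 7235 in sgScramble tumors.

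Chemokines divided by the cells they attract. Of 9 tested T cell attractants 6 rose and 0 fell. Cxcl9, which draws activated T cells and is induced by interferon-gamma, had log2 values of 9.69 and 9.65 in sgArid1a tumors, against 7.23 and 7.24 in sgScramble tumors. Cxcl10, which binds the same receptor, had 9.96 and 10.01 in sgArid1a tumors, against 9.81 and 9.76 in sgScramble tumors. Both were higher in both sgArid1a libraries, but by unlike amounts: 2.43 ± 0.07 for Cxcl9 (adjusted p = 1.6e-10) and 0.20 ± 0.07 for Cxcl10 (adjusted p = 0.022). Cxcl16 rose by 1.59 and Ccl5 by 0.71. Of 10 monocyte attractants 5 rose and 3 fell, with Ccl8 at 1.41 and Ccl2 at 0.04, which did not pass. All 6 tested neutrophil attractants fell, with a median of -0.64: Cxcl5 by 0.88, Cxcl2 by 0.81, Ppbp by 0.78 and Cxcl1 by 0.21. Neutrophil markers moved with them, with 7 of 9 lower and 1 higher: S100a9 was at 5.55 and 5.62 in sgArid1a tumors, against 6.64 and 6.68 in sgScramble tumors, and fell by 1.07 ± 0.06, S100a8 fell by 0.67, and the receptor Csf3r rose by 0.37. The summed level of neutrophil markers was 792 and 809 in sgArid1a tumors, against 1079 and 1140 in sgScramble tumors.

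Red cell transcripts were lower too. All 5 tested erythroid markers fell, with a median of -1.17. Hbb-bs had log2 values of 9.91 and 10.06 in sgArid1a tumors, against 11.72 and 11.61 in sgScramble tumors, and Alas2, which makes heme in red cell precursors, fell by 0.75. Hba-a1 and Hba-a2 are near-identical copies and fell by 1.18 and 1.17. The summed level was 2082 and 2268 in sgArid1a tumors, against 6062 and 5519 in sgScramble tumors. Of 22 endothelial markers 15 rose and 3 fell, with the adhesion protein Cdh5 up 0.49 and the growth factor receptor Kdr up 0.52. Their summed level was 20216 and 21085 in sgArid1a tumors and 20952 and 19117 in sgScramble tumors, and the groups overlapped.

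The list of immune checkpoint ligands, which also held enzymes, changed in part. Of 15 tested members 8 rose and 1 fell, and the one that fell was the enzyme Arg1. Cd274 (PD-L1), which restrains T cells, had log2 values of 9.86 and 9.89 in sgArid1a tumors, against 9.37 and 9.31 in sgScramble tumors, and rose by 0.54 ± 0.07. Entpd1 (CD39), which breaks down ATP outside cells, rose by 1.01, and the costimulatory ligand Cd86 by 0.73. Arg1, which depletes arginine and is made by some tumor macrophages, had 8.81 and 8.87 in sgArid1a tumors, against 10.66 and 10.80 in sgScramble tumors. It fell by 1.89 ± 0.07, and the groups were nearly 2 log2 units apart. Among cytokines and their receptors 22 of 31 rose and 3 fell: the decoy Il18bp rose by 1.28, the receptor Il10ra by 1.14 and Il18 by 0.99, and the alarmin Il33 and its receptor Il1rl1 fell by 0.79 and 0.71. Of 26 tested NF-kB genes 13 rose and 3 fell, with the adhesion molecule Vcam1 up 1.76 and the prostaglandin enzyme Ptgs2 down to 7.67 and 7.59 in sgArid1a tumors, against 8.85 and 8.85 in sgScramble tumors.

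**Figure D3:**
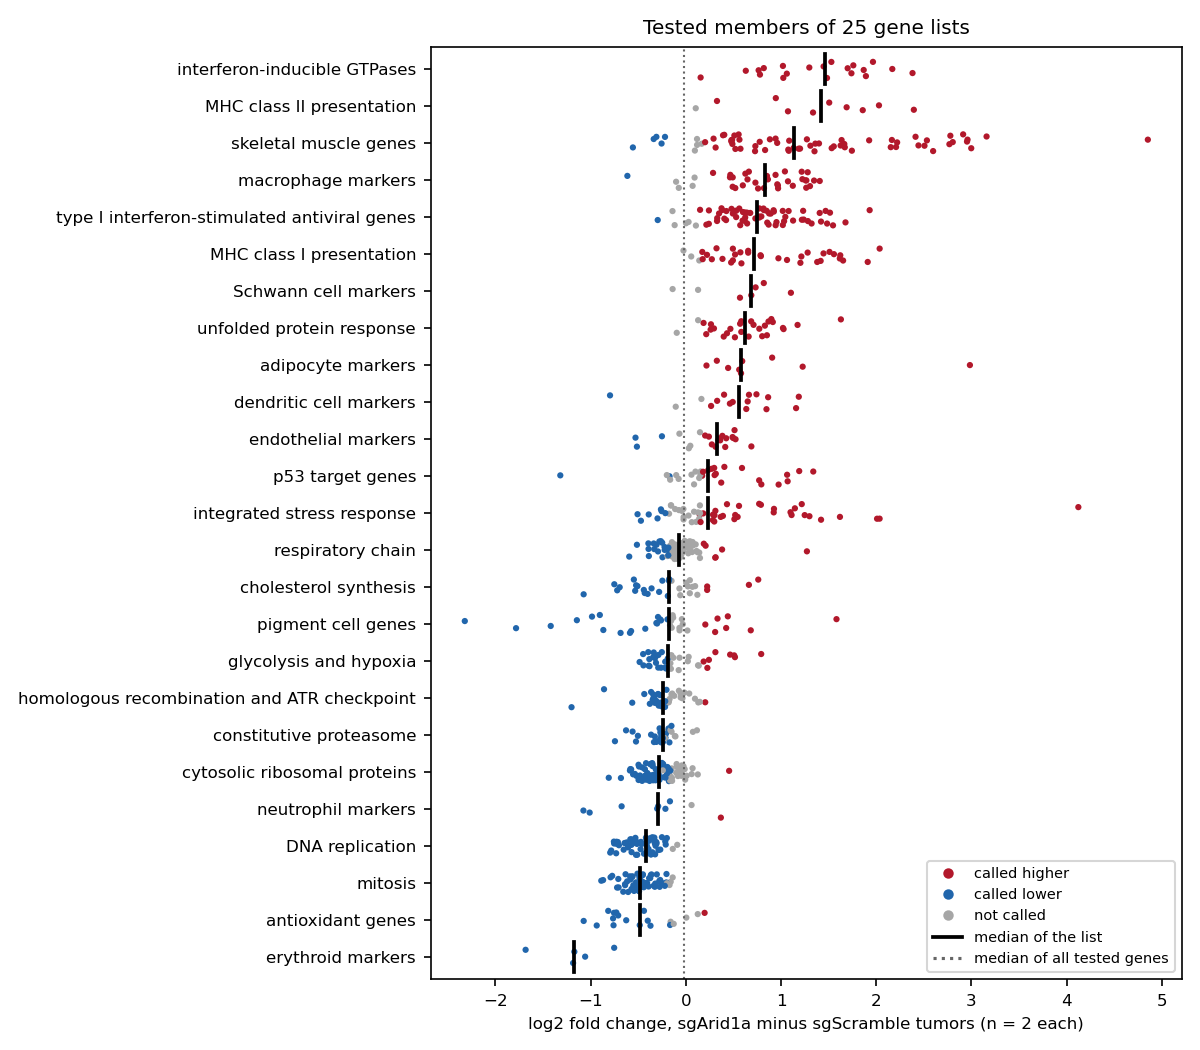
Log2 fold change (sgArid1a minus sgScramble tumors) of each tested member of 25 gene lists, with called members in color, the median of each list as a bar and that of all tested genes as a dotted line. Medians run from 1.47 for the interferon-inducible GTPases to -1.17 for the erythroid markers.

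Genes of protein folding in the endoplasmic reticulum rose. This unfolded protein response is set off by sensors in the membrane of that organelle, and its factors bind the ER stress response element (CCAAT, any 9 bases and CCACG) in front of chaperone genes. Of 28 tested members 26 rose and 0 fell, with a median of 0.62, and all 15 chaperones were among them. The main chaperone Hspa5 (BiP) had log2 values of 16.33 and 16.20 in sgArid1a tumors, against 15.41 and 15.52 in sgScramble tumors. Dnajb9, a co-chaperone that helps keep the sensor Ern1 inactive, had 11.44 and 11.30 in sgArid1a tumors, against 9.69 and 9.79 in sgScramble tumors. The groups did not overlap, and the rises were 0.80 ± 0.07 and 1.63 ± 0.07. Herpud1, which helps clear misfolded proteins, rose by 1.17, Pdia4 by 0.91, Creld2 by 0.87, Sel1l by 0.85, the sensor Ern1 by 0.66 and the factor Xbp1 by 0.52. That element, on either strand, was in 5 of 11 chaperone promoters with a window (45.5%) and in 6 of 21 of the whole list (28.6%), against 37 of all genes (0.137%). The promoters of Hspa5 (chr2:34771980-34772088, plus strand) and Creld2 (chr15:88819475-88819583, plus strand) are shown because each holds a match, in capitals, which in Creld2 lies on the opposite strand (RefSeq, GRCm38.p6).
Hspa5: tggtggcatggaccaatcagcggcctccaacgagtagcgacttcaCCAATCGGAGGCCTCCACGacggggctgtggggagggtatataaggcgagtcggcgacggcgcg
Creld2: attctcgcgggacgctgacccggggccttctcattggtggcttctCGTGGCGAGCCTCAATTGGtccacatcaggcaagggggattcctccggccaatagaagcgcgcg

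Cytosolic heat shock genes did not follow. Of 20 tested members 6 rose and 9 fell, with Dnajb1 at -0.65 and Hsp90aa1 at -0.52, and the median was -0.12. Without sgArid1a 2 it was 5 that rose and 5 that fell.

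The integrated stress response, in which kinases such as Perk (Eif2ak3) slow translation and let the factor Atf4 be made, rose in its factors. Of 12 tested factors 10 rose and 0 fell, with a median of 0.86, and of the whole list of 54, 30 rose and 7 fell. Nupr1, a stress-induced chromatin protein, had log2 values of 11.45 and 11.54 in sgArid1a tumors, against 9.52 and 9.46 in sgScramble tumors. Ddit3 (CHOP), the factor that drives death in prolonged stress, had 12.07 and 12.19 in sgArid1a tumors, against 10.93 and 10.90 in sgScramble tumors. Aldh1l2, a mitochondrial folate enzyme, had 12.36 and 12.38 in sgArid1a tumors, against 10.73 and 10.77 in sgScramble tumors. The groups were at least 1 log2 unit apart in each, with rises of 2.01 ± 0.07, 1.22 ± 0.06 and 1.62 ± 0.06. The mRNA of Atf4 itself rose by 0.15 ± 0.06 (adjusted p = 0.045). Among outputs, Fgf21 rose by 4.12, Vldlr by 2.04, the cysteine enzyme Cth by 1.30, Chac1, which breaks down glutathione, by 1.11, and the cystine carrier Slc7a11 by 1.25. The list was divided by role: 7 of 11 tested outputs and 11 of 18 genes of amino acid synthesis and uptake rose, whereas of 13 tRNA synthetases 2 rose and 4 fell. Serine synthesis did not move with it, with Phgdh at -0.07 ± 0.07 and Psat1 at 0.11 ± 0.06, both below the threshold of the test. Atf4 and its partners bind TGATGNAA, which was in 15 of 43 promoters of this list with a window (34.9%), against 4.51% of all genes. The promoters of Nupr1 (chr7:126625528-126625625, minus strand), Fgf21 (chr7:45615577-45615674, minus strand) and Slc7a11 (chr3:50443608-50443705, minus strand) are shown with that motif, on either strand, in capitals (RefSeq, GRCm38.p6).
Nupr1: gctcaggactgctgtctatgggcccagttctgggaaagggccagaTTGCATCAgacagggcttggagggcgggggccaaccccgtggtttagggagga
Fgf21: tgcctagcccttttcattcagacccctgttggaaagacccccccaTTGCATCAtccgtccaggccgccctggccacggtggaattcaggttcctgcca
Slc7a11: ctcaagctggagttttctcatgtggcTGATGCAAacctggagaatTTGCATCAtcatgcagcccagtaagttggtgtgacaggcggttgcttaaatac

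The same genes had the opposite direction in culture. In untreated sgArid1a cultures set against untreated sgScramble cultures, Nupr1 had a fold change of -3.21 ± 0.11, Ddit3 -2.32 ± 0.12, Chac1 -2.30 ± 0.13, Aldh1l2 -2.23 ± 0.11 and Slc7a11 -0.86 ± 0.11. In cultures given DMSO, from a separate experiment, they had -2.49, -1.36, -1.70, -1.44 and -1.23. All these were called, and all 5 genes rose in the tumors. The tables of tumors and cultures were normalized separately and share no library, and the difference between tumors and cultures was not tested. Over the whole list, 42 of 51 genes tested in untreated cultures were lower and 2 higher, and 39 of 51 in DMSO cultures were lower and 1 higher, against 5.98% lower of all genes in untreated and 4.38% in DMSO cultures. The folding genes went both ways: in untreated cultures 12 of 27 were higher and 4 lower, and in DMSO cultures 9 of 28 were higher and 3 lower, against 5.84% and 3.50% higher of all genes. Herpud1, Atf6 and the oxidase Ero1l were lower in both sets, Ero1l by -1.09 in untreated and -0.50 in DMSO cultures. Hspa5 had 1.19 ± 0.10 in untreated and 0.62 ± 0.10 in DMSO cultures, and Pdia4 0.57 and 0.47, called higher like the 0.80 and 0.91 of the tumors. Antiviral genes were higher in 33 of 45 tested members in untreated and 23 of 47 in DMSO cultures, with 0 lower, and MHC class I genes in 13 of 27 (1 lower) in untreated and 7 of 27 (0 lower) in DMSO cultures. Psmb8 had 0.72 and 0.27 and Tap1 0.72 and 0.33 in the cultures, all called, whereas H2-K1 (-0.22 and -0.17), B2m (-0.19 and 0.07) and Nlrc5 (-0.07 and 0.07) did not pass there. Kit was lower in all 3, with -1.42 in untreated and -0.70 in DMSO cultures.

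**Figure D4:**
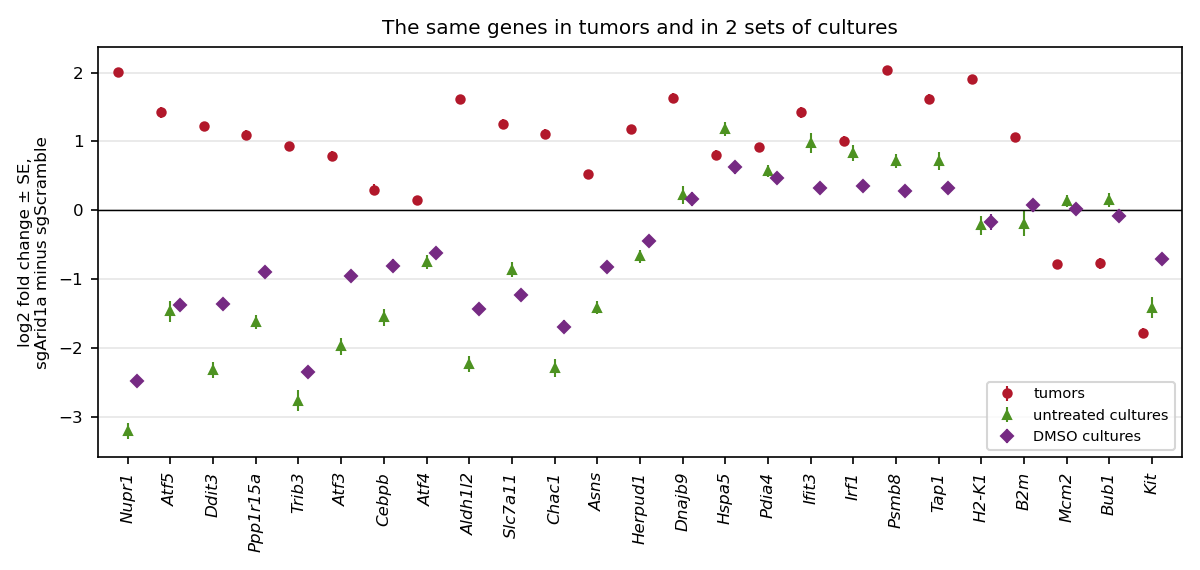
Log2 fold change ± SE (sgArid1a minus sgScramble, 2 libraries per group) of 25 genes in tumors, untreated cultures and DMSO cultures. Stress factors from Nupr1 to Herpud1 lie above 0 in tumors and below 0 in both sets of cultures, while Hspa5, Pdia4, Ifit3, Irf1, Psmb8 and Tap1 lie above 0 in all 3.

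Over all genes, fewer were called in the cultures than in the tumors, but depth and spread differed too. Libraries held 8.7 to 22.8 M reads in untreated and 15.5 to 20.3 M in DMSO cultures, against 31.6 to 38.8 M in tumors. The median difference between the 2 sgScramble libraries was 0.16 in untreated and 0.12 in DMSO cultures, against 0.0755 in tumors. Between the 2 sgArid1a libraries it was 0.093 and 0.0665, against 0.0685. The part of depth and spread in the counts was not tested. In untreated cultures, 678 of 11604 tested genes were higher (5.84%) and 694 lower (5.98%), and in DMSO cultures 412 of 11783 were higher (3.50%) and 516 lower (4.38%), so that 11.8% and 7.88% were called in one direction or the other. By at least 1, 8 genes (0.0689%) were higher and 72 (0.620%) lower in untreated cultures, and 1 (0.00849%) was higher and 20 (0.170%) were lower in DMSO cultures. Of the genes higher in untreated cultures, 36.7% were also higher and 31.4% lower in the tumors, and of those lower in untreated cultures 31.3% were higher and 36.7% lower. For comparison, 11501 genes tested in tumors reached the level of the test in untreated cultures, and 2420 of these were higher and 3642 lower in tumors. Of the 3611 genes higher in tumors, 6.9% were higher and 6.01% lower in untreated cultures, against 4.87% and 4.97% of all genes tested in tumors. Of the 88 genes lower by 1 or more in tumors, 21 (23.86%) were lower and 3 (3.41%) higher in untreated cultures. Of the 295 higher by 1 or more, 49 (16.61%) were higher and 27 (9.15%) lower there. Only 147 of those 295 genes reached the level of the test in untreated cultures, against 67 of the 88. The culture counts changed when 1 library was left out, which leaves 1 library in its group. In both sets they were lower without either sgArid1a library. In untreated cultures they were higher without sgScramble 2 and somewhat lower without sgScramble 1. In DMSO cultures they were higher without either sgScramble library. The cause was not tested.

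Genes of DNA synthesis and cell division fell. The 60 tested DNA replication genes had a median of -0.42, with 58 lower and 0 higher, and the 63 mitosis genes a median of -0.48, with 59 lower and 0 higher. Mcm2, a subunit of the replicative helicase, had log2 values of 13.55 and 13.62 in sgArid1a tumors, against 14.37 and 14.37 in sgScramble tumors. Pcna, the sliding clamp of the polymerases, had 11.60 and 11.66 in sgArid1a tumors, against 12.34 and 12.43 in sgScramble tumors. Bub1, a kinase of the spindle checkpoint, had 11.50 and 11.31 in sgArid1a tumors, against 12.07 and 12.28 in sgScramble tumors. The falls were alike in size and no groups overlapped: -0.78 ± 0.06, -0.75 ± 0.06 and -0.77 ± 0.08. The helicase partner Gins2 fell by 0.79, the licensing factor Cdt1 by 0.75, the phosphatase Cdc25b by 0.89, the division factor Mybl2 by 0.87 and Nusap1 by 0.79. The proliferation antigen Mki67 had 13.77 and 13.64 in sgArid1a tumors, against 13.88 and 13.97 in sgScramble tumors, and fell by 0.22 ± 0.06. In the same libraries the inhibitor Cdkn1a (p21) had 13.28 and 13.36 in sgArid1a tumors, against 12.33 and 12.17 in sgScramble tumors, a rise of 1.07 ± 0.07, and the early-phase regulators Ccnd1, Ccnd2 and Cdk6 rose by 0.48, 0.74 and 0.77. Of 23 tested genes of cell cycle entry, however, 4 rose and 12 fell. Among their 17 cyclins, kinases and E2F genes 3 rose and 10 fell. Of 29 tested p53 target genes 17 rose and 2 fell, among them Trp53inp1 (1.19) and Btg2 (1.06), while Perp fell by 1.32.

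The factor E2F1, which switches on replication genes, fell by 0.68 in its mRNA. Its motif was searched as TTTGGCGC, TTTCCCGC, TTTCGCGC or TTTGCCGC on either strand and was in 17 of 50 replication promoters with a window (34%), against 2.60% of all genes. TTTGAA, the cell cycle homology region of late cell cycle genes, was in 37 of 53 mitosis promoters (69.8%), against 20.2%. The promoter of Mcm5 (chr8:75109315-75109412, plus strand), which fell by 0.73, is shown since its capitals hold a pair of overlapping E2F matches (RefSeq, GRCm38.p6).
Mcm5: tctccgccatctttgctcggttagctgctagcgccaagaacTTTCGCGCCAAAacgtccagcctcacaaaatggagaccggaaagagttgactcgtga

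Genes of homologous recombination and the ATR checkpoint fell in 25 of 42 members and rose in 1. Brca1, which guides repair of broken DNA, had log2 values of 11.87 and 11.86 in sgArid1a tumors, against 13.03 and 13.10 in sgScramble tumors. Its fall of 1.20 ± 0.06 stood beside one of 0.44 for Fancd2, of the Fanconi pathway. Of 23 factors that act on R-loops, hybrids of RNA and DNA, 13 fell and 0 rose. Genes of growth went the same way: of 82 cytosolic ribosomal protein genes 58 fell and 1 rose (median -0.28), and of 32 ribosome biogenesis genes 21 fell and 0 rose, or 12 fell without sgArid1a 1 and 13 with the replicate number as a block. Many copies of ribosomal protein genes exist in the genome, so single values are uncertain. In untreated cultures 17 of 60 replication genes were higher and 0 lower, and 6 of 63 mitosis genes were higher and 0 lower. In DMSO cultures 8 replication genes were higher and 1 lower, and 2 mitosis genes were higher and 0 lower. Pcna, for example, was called higher in untreated cultures (0.39), and Mcm2, Bub1 and Brca1 did not pass the test in either set. The difference from the tumors was not tested.

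Pigment cell genes changed unevenly. Of 34 tested members 7 rose and 17 fell, with a median of -0.18, against -0.0191 for all genes. The melanocortin receptor Mc1r, which turns on black pigment, had log2 values of 12.21 and 12.27 in sgArid1a tumors, against 13.66 and 13.66 in sgScramble tumors. The melanosome matrix protein Pmel had 16.48 and 16.58 in sgArid1a tumors, against 17.55 and 17.47 in sgScramble tumors. Kit had 9.43 and 9.50 in sgArid1a tumors, against 11.28 and 11.22 in sgScramble tumors. All 3 were lower in both sgArid1a libraries, by 1.42 ± 0.06, 0.98 ± 0.07 and 1.78 ± 0.06 on the log2 scale. The melanosome transporter Oca2 fell by 1.14, Trpm1 by 0.90, the melanin enzyme Tyrp1 by 0.68 and the factor Tfap2a by 0.59. The lineage factor Mitf rose by 0.33 ± 0.06, Gpnmb by 0.68 and the channel Kcnj13 by 1.58, while Dct (-0.15), Mlana (-0.06) and Sox10 (0.02) did not pass. The summed level of the pigment list was 1088939 and 1109775 in sgArid1a tumors, against 1298553 and 1264757 in sgScramble tumors. Of the pigment genes, Kcnj13 was also called higher in untreated (1.26) and DMSO (1.40) cultures, and Trpm1, Kit, Sytl2 and Oca2 were called lower in both. Mbp, a myelin gene that was also measured in the cultures, rose by 0.69 in tumors and had -1.34 in untreated and -1.34 in DMSO cultures. Of 7 tested Schwann cell markers, Mbp among them, 5 rose, and their summed level was 22452 and 23253 in sgArid1a tumors, against 14832 and 14560 in sgScramble tumors. Of the 7, 6 also reached the level of the test in untreated cultures, which hold no host cells, and 4 of these 6 rose in the tumors.

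Skeletal muscle genes had the highest median of the cell type lists tested here. Of 67 tested members 58 rose and 5 fell, with a median of 1.13, and all 10 genes of fast fibre contraction rose by 1 or more, with a median of 2.48. Acta1 had log2 values of 11.95 and 12.05 in sgArid1a tumors, against 8.98 and 8.70 in sgScramble tumors. Myh4, the myosin of the fastest fibres, had 9.96 and 9.75 in sgArid1a tumors, against 7.05 and 7.10 in sgScramble tumors. Ckm, the muscle creatine kinase, had 10.32 and 10.30 in sgArid1a tumors, against 7.78 and 7.65 in sgScramble tumors. The 2 sgArid1a libraries were alike and both far above the 2 sgScramble libraries, with rises of 3.16 ± 0.09, 2.78 ± 0.08 and 2.60 ± 0.07. Of 5 tested genes of slow fibres 2 rose and 1 fell, with Tnnt1 at -0.55. The factors that make muscle, Myod1 and Myog, were under the level of the test: Myod1 had 0.45 and 0.50 in sgArid1a tumors and 0.44 and 0.43 in sgScramble tumors. In untreated cultures Mylpf, a fast light chain, had a fold change of 0.07 ± 0.12 that did not pass, and most of the list was under the level of the test. The summed level of the muscle list was 83260 and 83309 in sgArid1a tumors, against 67425 and 67172 in sgScramble tumors. This sum includes 12 tested members that also reached the level of the test in untreated cultures, which hold no host cells. In the tumors these 12 had a median of 0.34, with 8 higher and 2 lower. The 55 members below that level in culture had a median of 1.27, with 50 higher and 3 lower. The part of muscle tissue taken with the tumors was not tested. All 9 tested adipocyte markers also rose, with a median of 0.58: Car3 rose by 2.98, Fabp4 by 0.58 and Adipoq by 0.56. Their sums were 4172 and 4066 in sgArid1a tumors, against 1921 and 2177 in sgScramble tumors. These sums include Car3, far above the median of its list, with log2 values of 10.3 and 10.3 in sgArid1a tumors, against 7.3 and 7.4 in sgScramble tumors. Of 11 keratinocyte markers only Sfn was tested (0.20), Krt14 was listed at 0 in all 4 libraries, and the summed level was 71 and 76 in sgArid1a tumors, against 69 and 62 in sgScramble tumors. The skin gene Cdsn, which lies in the MHC region, rose by 3.45 ± 0.09.

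Cartilage collagens and several other matrix genes of cartilage rose. Of 8 tested collagens 7 rose and 0 fell, with Col9a1 at 10.13 and 9.99 in sgArid1a tumors, against 7.89 and 8.01 in sgScramble tumors, and a rise of 2.11 ± 0.08 beside those of Col2a1 and Col11a2. Hapln1, a link protein of cartilage matrix, had 12.44 and 12.39 in sgArid1a tumors, against 9.78 and 9.95 in sgScramble tumors, and rose by 2.55 ± 0.07. Of 7 tested genes of other cartilage matrix, Hapln1 among them, 5 rose and 1 fell, with Scrg1 at 0.68 and Matn3 at -0.21. Of 4 chondrogenic factors 0 rose and 1 fell. The master factor of cartilage, Sox9, had 6.16 and 6.17 in sgArid1a tumors, against 7.52 and 7.34 in sgScramble tumors, and fell by 1.26 ± 0.08, and the proteoglycan Acan was under the level of the test. In untreated cultures Col11a2 was called higher by 1.31 ± 0.20, while Col2a1 (-0.05) and Hapln1 (-0.02) did not pass. Fibrillar collagens of connective tissue fell in 4 of 7 and rose in 0, with Col1a1 at -0.32 and Col3a1 at -0.24, and of 24 fibroblast and pericyte markers 13 rose and 2 fell, with summed levels of 27461 and 27383 in sgArid1a tumors and 27058 and 26500 in sgScramble tumors. Spp1 (osteopontin) fell by 1.42 ± 0.08 and Fbln1 by 1.10 ± 0.08, and both were also called lower in untreated (-1.44 and -1.08) and DMSO (-0.50 and -0.65) cultures. Of 43 matrix proteases and inhibitors 17 rose and 12 fell: the plasminogen activator inhibitor Serpinb2 fell by 2.28 and the metalloproteinase inhibitor Timp1 by 0.80.

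Antioxidant genes, many of them targets of the factor Nrf2 (Nfe2l2), fell in 14 of 19 members and rose in 1, with a median of -0.48. Hmox1, which breaks down heme, had log2 values of 13.00 and 13.09 in sgArid1a tumors, against 14.06 and 13.91 in sgScramble tumors, and fell by 0.93 ± 0.07. Gsta4 fell by 1.07, the thioredoxin reductase Txnrd1 by 0.76, the glutathione enzyme Gclm by 0.71 and Nfe2l2 by 0.40. Cholesterol synthesis enzymes fell in 13 of 21 and rose in 2. Mvd, which makes isoprenoid precursors, had 10.01 and 10.16 in sgArid1a tumors, against 10.85 and 10.76 in sgScramble tumors, a fall of 0.72 ± 0.07. In untreated cultures 18 of the 21 enzymes were called higher and 0 lower, and in DMSO cultures 16 and 0, with Mvd at 1.13 and 0.57, and the difference was not tested. Of 39 glycolysis and hypoxia genes 20 fell and 8 rose: Eno1 fell by 0.48, Ldha by 0.32 and the oxygen sensor Egln3 by 0.45, while Hif1a rose by 0.79 ± 0.07, and without sgArid1a 2 it was 5 that rose. In the respiratory chain 21 of 78 genes fell and 6 rose, close to or under the background of all genes, and 11 fell without sgArid1a 1. The muscle form Cox6a2 rose by 1.27.

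Among signalling targets, Notch genes rose in 13 of 14 tested members with 0 lower, such as the repressor Hes1 at 1.07 ± 0.08 and the ligand Jag1 at 0.93 ± 0.07. Wnt targets fell in 5 of 8 with 0 higher: Tcf7, a factor of the pathway that T cells express too, had log2 values of 7.43 and 7.43 in sgArid1a tumors, against 8.82 and 8.76 in sgScramble tumors, and fell by 1.36 ± 0.07, and Axin2 fell by 0.89. Axin2 was also called lower in untreated (-0.72) and DMSO (-0.54) cultures. Neuronal genes went both ways, 27 of 75 higher and 21 lower, near the background: the tubulin Tubb3, Nrxn2 and L1cam fell by 1.08, 1.06 and 1.04, and the guidance factor Sema3c rose by 1.24.

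Part of the small differences followed the chromosomes. The median log2 fold change was -0.19 over 1090 tested genes of chromosome 2, -0.20 over 733 of chromosome 8 and 0.11 over 794 of chromosome 1, and between -0.0496 and 0.0456 on the other 17 chromosomes. On chromosome 2, 52.6% of tested genes were called lower and 15.1% higher, and on chromosome 8, 53.5% were called lower. The libraries of a group lay together: relative to the gene means, the median of chromosome 8 was -0.099 and -0.093 in sgArid1a tumors, against 0.107 and 0.089 in sgScramble tumors. The gene means were taken over the libraries of both groups, so these values cannot tell which group was shifted. On chromosome 8 the difference lay in the distal part, with medians of -0.27, -0.31 and -0.34 in 20 Mb windows from 80 Mb on, against -0.03 to -0.11 before, and on chromosome 1 from 120 Mb on, with 0.17 to 0.22, against -0.03 to 0.09 before. Chromosome 2 was shifted along its length, with -0.06 to -0.25. In the cultures all chromosomes, these included, stayed between -0.0402 and 0.0525. DNA copy number was not measured, and its part in these shifts was not tested. Off chromosomes 2 and 8, 48 of 50 replication genes and 48 of 52 mitosis genes fell, with medians of -0.41 and -0.46. The Ifi200 genes (chr1:173420604-174031755) lie in the shifted part of chromosome 1, and 10 of 10 tested rose, with a median of 0.62 against 0.18 for their window.

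**Figure D5:**
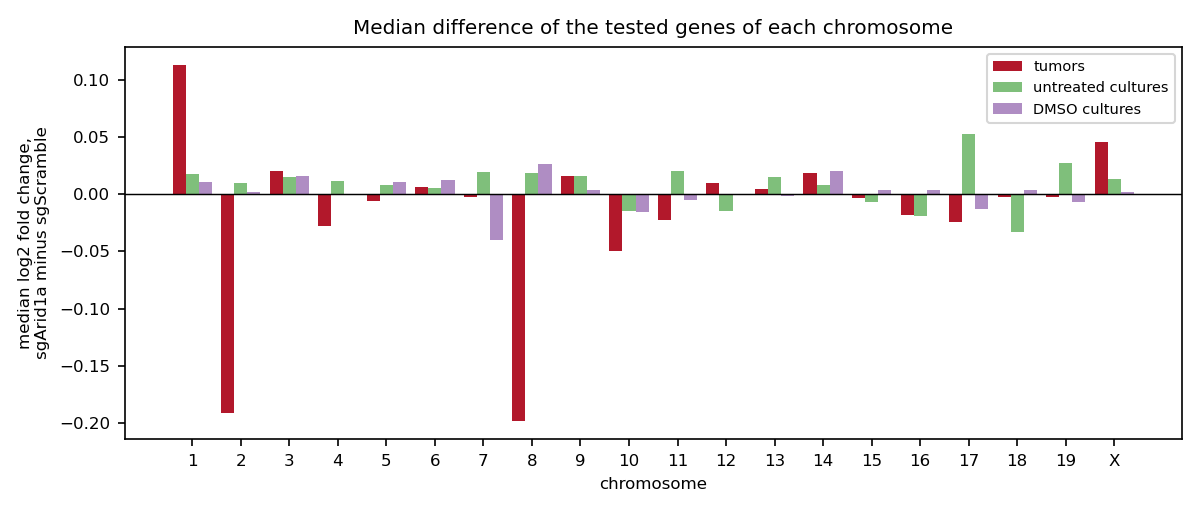
Median log2 fold change (sgArid1a minus sgScramble) of the tested genes of each chromosome in tumors, untreated cultures and DMSO cultures. In tumors chromosomes 2 and 8 stand near -0.2 and chromosome 1 at 0.11, while the cultures stay within about 0.05 of 0.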

How the data were processed

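The submitters' processing notes name the build GRCm38 (mm10) and the tools STAR 2.5.3a, HOMER, edgeR and DESeq2. The deposited tumor table holds log2 values, on which the authors' normalization had shrunk differences between low values. Adjusted p-values and log2 fold changes of the authors stand beside them in the deposited table and were used only for counts named as theirs. Per the file headers no strand option was set, so antisense reads may be counted with a gene. Values of 2 tumor columns of another genotype were not used.

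The log2 values were tested as deposited with limma 3.58.1 (limma-trend) in R 4.3.3, on genes with a mean of at least 4, with Benjamini-Hochberg adjustment over all tested genes. The tumor fit held only the 4 tumor libraries. Culture fits held all groups of their table. The precision follows from 2 libraries per group, and depth per library is known only as reads in the headers, 31.6 to 38.8 M in tumors. The design had allowed for counts, and the test for log2 values was used. Summed levels add 2 to the power of the log2 value over the members of a list.

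Members and lists were chosen with earlier results of these data known. Named genes were the SWI/SNF subunits, the 12 largest rises and 12 largest falls with a mean log2 level of 7 or more and no overlap of groups, up to 5 called members per list, role and direction, members whose role is needed, and members opposite to their list. Promoters came from RefSeq (GRCm38.p6), 250 bases before to 50 after a start. Alternatives changed the filter, variance model, scaling, replicate block and libraries. The test was also checked on simulated data. Same-numbered libraries did not deviate together (r = -0.51 in tumors), so numbers were not used as pairs. Some genes of the lists are not reported here by name.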

Additional observations from a re-analysis of the deposited data

Results flagged for a closer look

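Of 676 named genes, 12 met a rule for a closer look, all of the stress response and p53 target lists. They were called by at least 1 in tumors and called the other way in both sets of cultures, without overlap between groups in any. The lack of overlap thus followed from the rule, and the share of all genes that would meet it was not counted. The difference between tumors and cultures was not tested, since the tables were normalized separately. Nupr1 had a log2 fold change of 2.01 in tumors, -3.21 in untreated cultures and -2.49 in DMSO cultures. Of the other transcription and translation factors, Atf5 had 1.42 in tumors, -1.47 in untreated and -1.38 in DMSO cultures, Ddit3 had 1.22, -2.32 and -1.36 in the same order, and the phosphatase subunit Ppp1r15a 1.10, -1.63 and -0.89. Of the outputs, Vldlr had 2.04, -1.69 and -1.04, Cth 1.30, -0.96 and -0.71, and Chac1 1.11, -2.30 and -1.70. Of the genes of amino acid use, Aldh1l2 had 1.62, -2.23 and -1.44, Slc7a11 1.25, -0.86 and -1.23, and Pycr1 1.15, -1.08 and -0.68. Herpud1, of protein degradation, had 1.17, -0.67 and -0.45, and the p53 target Gadd45a 1.34, -0.62 and -0.34. Groups of 2 libraries were too small for a search for single libraries that stand apart.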

How the results depend on the processing

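The tumor counts kept within 1.5 times under every other filter, variance model, scaling and set of libraries tried: 2977 to 3798 genes higher, 3094 to 4113 lower, and by at least 1, 262 to 302 higher and 83 to 104 lower. Of 676 named genes 572 stayed on the same side of the threshold in every alternative and 0 reversed, and of 55 lists 41 stayed within 1.5 times. With the block 12 respiratory chain genes and 5 heat shock genes fell, and with crossed pairing 37 respiratory chain genes. With the level of the test raised to 6, where fewer genes were tested, 1 T cell marker was called higher, in place of 6. With the replicate block the tumor calls were 3167 higher and 3141 lower. After seeing the data 2 alternatives were added: crossed pairing of the numbers gave 4519 higher and 5151 lower, and centring each chromosome gave 3789 and 3561. The culture counts depended on the settings. In untreated cultures 291 genes were higher and 387 lower with the replicate block, and 266 and 376 with only the 2 groups compared. Leaving out 1 library at a time gave 166 to 1580 higher and 285 to 1260 lower in untreated cultures, the most without sgScramble 2, and 42 to 1529 higher and 135 to 1711 lower in DMSO cultures, the most without sgScramble 1. The cause was not tested. The deposited values draw low genes together, so their changes are understated, and with 2 libraries per group small differences rest on the spread shared over all genes.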

Other observations

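Transcripts of the Y chromosome were low but higher in sgArid1a tumors. Ddx3y, an RNA helicase, had log2 values of 7.96 and 7.73 in sgArid1a tumors, against 7.35 and 7.44 in sgScramble tumors, and a fold change of 0.45 ± 0.09. The translation factor gene Eif2s3y had 0.59 ± 0.09, Kdm5d 0.46 ± 0.07 and Uty 0.24 ± 0.09, and all 4 were called higher. These genes are on no list and were chosen after their values were seen.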
